A study of Sus scrofa with 35 samples.

Results

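Leukocyte adhesion molecules were measured in whole blood of growing castrated male pigs kept in thermoneutral conditions (TN) or under heat stress (HS). The set comprised 9 genes, ITGAL, ITGAM, ITGAX, ITGA4, ITGB1, ITGB2, ITGB7, SELPLG and PECAM1, and its members were the array probes that the scanner files name with one of these symbols. A total of 19 probes for 7 of the 9 genes were found among 60305 probes, and all 19 were among the 39072 probes in the deposited table of log2 values. ITGB1 had 7 probes, PECAM1 had 4, ITGAL had 3, SELPLG had 2, and ITGA4, ITGB2 and ITGB7 had 1 each. No probe carried the name of ITGAM or ITGAX, so the αM and αX integrins of granulocytes and monocytes were not analysed here.

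Each of the 35 pigs gave 1 array. There were pigs of 3 breeds, namely Creole pigs (CR), Large White pigs (LW) and their cross (F1), and each breed was sampled in TN and in HS. The 6 groups held 6 pigs each, except CR pigs in TN with 5. TN was 24 °C, and the labels give 30 °C for HS while the protocol text gives 32 °C for 5 d. According to the methods of the study, some HS pigs were exposed for a day less, all TN pigs were slaughtered before the temperature rose, and pens held pigs of 1 breed with littermates spread over them. Climate and day of slaughter therefore cannot be told apart, and the labels give neither pen nor litter.

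Leukocytes leave the blood in steps. SELPLG, also called PSGL-1, is the mucin on leukocytes that binds selectins and lets the cells roll along the vessel wall. Integrins are pairs of an α and a β chain that switch to a binding state and then hold the cell firmly. ITGAL pairs with ITGB2 to form LFA-1, which binds ICAM proteins, and ITGA4 pairs with ITGB1 (VLA-4) to bind VCAM1 and fibronectin or with ITGB7 to bind MADCAM1. PECAM1 sits on leukocytes, platelets and the contacts between endothelial cells, where it takes part in the passage through the vessel wall.

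Some of these genes were read by probes of 60 bases that gave different results, and the sequences below, copied from the scanner files, identify the probes the results turn on. The 2 SELPLG probes had no more than 5 bases in a row in common and are shown because their differences between HS and TN had opposite signs. Both PECAM1 probes were higher in HS, the ITGAL sequence is on the array under 2 probe names with different outcomes, and the ITGB1 probe is the brightest of 7.
SELPLG O6318: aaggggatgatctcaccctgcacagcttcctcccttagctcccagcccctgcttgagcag
SELPLG A_72_P303064: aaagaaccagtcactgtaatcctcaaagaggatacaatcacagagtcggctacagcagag
PECAM1 A_72_P218027: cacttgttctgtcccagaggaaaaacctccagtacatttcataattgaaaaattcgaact
PECAM1 A_72_P446708: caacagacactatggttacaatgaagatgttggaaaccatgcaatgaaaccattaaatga
ITGAL O11850 and A_72_P537242: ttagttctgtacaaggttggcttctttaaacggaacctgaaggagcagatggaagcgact
ITGB1 A_72_P195557: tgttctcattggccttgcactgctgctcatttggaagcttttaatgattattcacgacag

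The values below are quantile-normalized log2 intensities as deposited, and a difference is HS minus TN unless another is named. A level is compared between groups only within 1 probe. Of the 19 probes, 17 were well above background on all 35 arrays, SELPLG A_72_P303064 on 33 and PECAM1 A_72_P446708 on 34, so the 7 genes were detected in blood of every group. Tests were fitted with limma across all 39072 probes, and the threshold was a Benjamini-Hochberg adjusted p of 0.05. The arrays had between 55.2 and 68 percent of probes well above background, with the F1 pigs in TN between 55.2 and 63.9 percent and the F1 pigs in HS between 63.2 and 67.5 percent. Blood cell markers were present: both probes of AHSP, the chaperone of α-globin, averaged 17.67 and 17.76, and the probes of CD3E, a subunit of the T cell receptor complex, averaged 11.35 and 11.82.

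Over all breeds, 3 of 4 PECAM1 probes rose and 1 of 2 SELPLG probes fell in HS, while ITGB2, ITGB7, ITGA4 and all ITGB1 probes stayed short of the threshold. In all, 5 of the 19 probes passed (26.3%), 4 higher and 1 lower in HS, against 34.8 percent of all 39072 probes, of which 20.1 percent were higher and 14.7 percent lower. The share among the adhesion molecules was thus no larger than that of the array. The median difference of the 19 probes was 0.12, and that of all probes was 0.06. When the F1 pigs were left out, 0 of the 19 probes and 0 of all 39072 probes passed with limma, and 5 of the 19 had an unadjusted p below 0.05 against 17.5 percent of all.

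**Figure D1:**
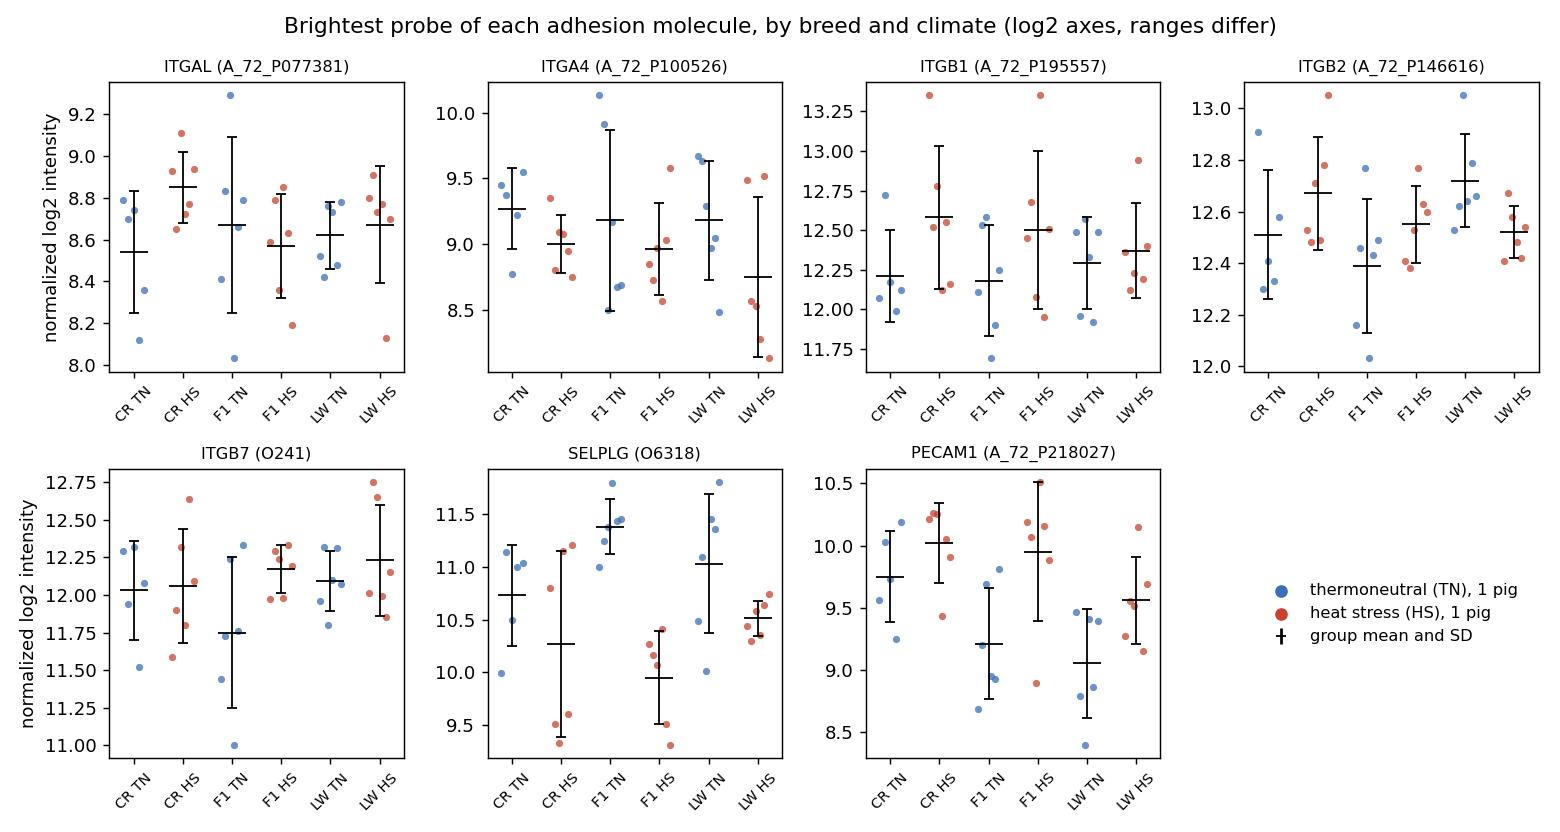
Normalized log2 intensity (y axis, with a range of its own in each panel) of the brightest probe of each of the 7 measured genes in the 6 groups of breed and climate (x axis). Each point is 1 pig and the bars are the group mean and SD; the F1 HS and F1 TN points of SELPLG O6318 are the only HS and TN points of a breed that do not overlap in these panels.

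PECAM1 was the gene with the most probes above the threshold. For its brightest probe, A_72_P218027, the 5 CR pigs in TN had 9.25, 9.56, 9.73, 10.03 and 10.19, and the CR pigs in HS ranged from 9.43 to 10.26 with a median of 10.13. The F1 pigs ranged from 8.68 to 9.81 in TN (median 9.07) and from 8.89 to 10.51 in HS (median 10.12). The LW pigs ranged from 8.39 to 9.46 in TN (median 9.12) and from 9.15 to 10.15 in HS (median 9.53). In each breed the HS median was higher and the HS and TN ranges overlapped. Over all breeds the level was 0.51 ± 0.14 (SE) higher in HS, which is 1.43-fold (adjusted p = 0.00591), and 16 of the 18 HS pigs were above the TN mean of their breed.

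Probe A_72_P446708, which lies further along the transcript (first base 2089 against 556), was also higher in HS, by 0.34 ± 0.09 (SE, adjusted p = 0.00494). In F1 pigs its level went from a median of 5.84 in TN (range 5.20 to 6.06) to 6.36 in HS (range 5.75 to 6.78). A_72_P650260 was higher by 0.36 ± 0.13 (SE, adjusted p = 0.0305), with F1 medians of 9.04 in TN and 9.84 in HS. The adjusted p of this last probe passed 0.05 when one of 4 arrays was left out: 0.0544 without F1 TN replicate 1, 0.0565 without F1 TN replicate 4, 0.0533 without F1 HS replicate 5 and 0.0517 without LW HS replicate 4. The fourth PECAM1 probe, A_72_P077376, differed by 0.15 ± 0.08 (SE, adjusted p = 0.158). Across the 35 arrays the 4 probes correlated with each other at Pearson r from 0.66 to 0.86. These probes share at most 7 bases in a row, so they are separate readings of the RNA of the same pigs.

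**Figure D2:**
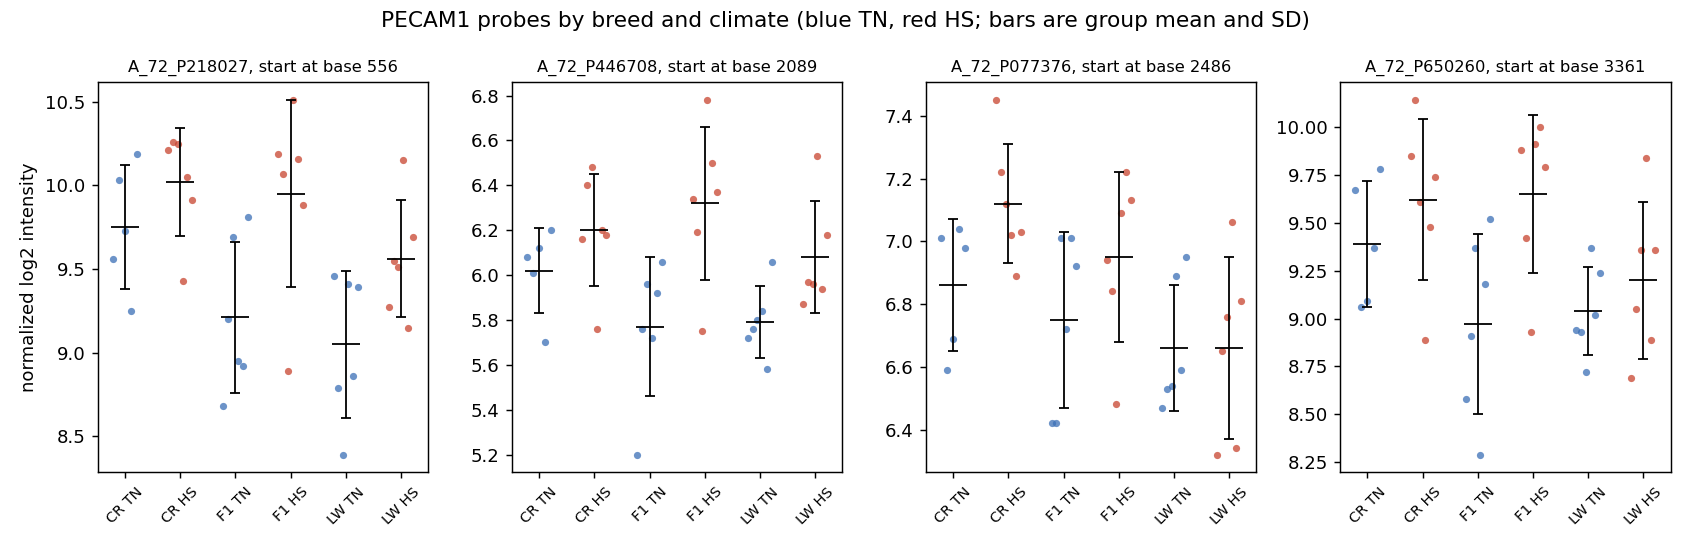
Normalized log2 intensity (y axis, with a range of its own in each panel) of the 4 PECAM1 probes in the 6 groups (x axis), ordered by the first base of the probe in the transcript record it was designed on. Points are pigs and bars are group mean and SD; the F1 HS mean is above the F1 TN mean in all 4 panels, and the LW groups have the same mean of 6.66 for A_72_P077376.

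Within breeds, 3 PECAM1 probes passed the threshold in F1 pigs, where 38.7 percent of all probes did (20.8 percent higher and 17.9 percent lower). The differences were 0.74 ± 0.23 for A_72_P218027 (SE, adjusted p = 0.0142), 0.68 ± 0.22 for A_72_P650260 (SE, adjusted p = 0.0148) and 0.55 ± 0.15 for A_72_P446708 (SE, adjusted p = 0.00521). With array weights only A_72_P446708 among these kept an adjusted p below 0.05, and A_72_P218027 had 0.118 and A_72_P650260 had 0.079. Without F1 TN replicate 4, A_72_P650260 had 0.0543. The size of the A_72_P446708 difference in F1 pigs depended on the scaling, with 1 after 75th percentile scaling and 0.39 after normexp correction (0.61 and 0.24 over all breeds), and the stricter filter, well above background on all arrays, left this probe out. In CR pigs the same 3 probes differed by 0.17 to 0.27, and in LW pigs by 0.16 to 0.50. No probe of the array passed within CR or within LW, where 2 and 5 of the 19 adhesion probes had an unadjusted p below 0.05, against 8.87 and 8.71 percent of all probes. The difference in heat response between F1 and CR pigs was 0.48 ± 0.34 (SE) for A_72_P218027 with an adjusted p of 0.556, and between F1 and LW pigs it was 0.24 ± 0.33 (SE) with an adjusted p of 0.687.

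PECAM1 also gave the nearest approach to a difference between breeds. Over both climates, A_72_P218027 averaged 9.90 in CR, 9.58 in F1 and 9.30 in LW pigs. CR minus LW was 0.57 ± 0.17 (SE, unadjusted p = 0.00192 in the limma fit, adjusted p = 0.105), and for A_72_P077376 it was 0.34 ± 0.10 (SE, adjusted p = 0.115). In the order of the 6 group means of A_72_P218027, from CR HS (10.02) through F1 HS (9.95), CR TN (9.75), LW HS (9.56) and F1 TN (9.21) to LW TN (9.05), no neighbours differed by more than the pooled SD of 0.42. The adjusted p of CR minus LW fell to 0.0386 with array weights, 0.0498 with the mean of neutrophil genes in the model and 0.049 without CR HS replicate 4.

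Markers of other PECAM1-bearing cells were on the array too. The mean of 4 of 8 listed platelet genes ranged from 6.60 to 8.23 in TN and from 6.53 to 8.91 in HS, and the mean of 4 of 8 endothelial genes from 6.07 to 7.36 and from 6.10 to 7.83. None of the 7 platelet probes and 1 of the 6 endothelial probes (TIE1) was higher in HS. Of these, 4 platelet and 2 endothelial probes were well above background on all arrays, so the endothelial mean rests mostly on dim probes. After the group means were taken out, A_72_P218027 correlated at 0.53 with both means over 35 arrays, at 0.50 with the mean of 5 of 9 B cell genes and at -0.39 with the mean of erythroid genes. The B cell mean correlated at 0.47 with A_72_P650260 and at 0.49 with A_72_P446708, and it differed between HS and TN by 0.14 in CR, 0.45 in F1 and 0.25 in LW pigs. With the erythroid mean in the model A_72_P218027 differed by 0.31 ± 0.15 (SE, adjusted p = 0.234), and without F1 pigs by 0.39 ± 0.15 (SE, adjusted p = 0.224). A_72_P650260 had adjusted p-values of 0.675 and 0.446 in these fits and 0.0977 with the neutrophil mean, and A_72_P446708 had 0.23 and 0.234. The part of the platelet, endothelial and B cell genes in the PECAM1 difference was not tested. In whole blood, fewer cells of a type and less RNA per cell cannot be told apart.

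SELPLG had 2 probes with different results. For O6318, the 5 CR pigs in TN had 9.99, 10.50, 11, 11.04 and 11.14, and the CR pigs in HS ranged from 9.33 to 11.21 with a median of 10.20. The F1 pigs ranged from 11 to 11.79 in TN (median 11.40) and from 9.31 to 10.41 in HS (median 10.11). LW pigs ranged from 10.01 to 11.80 in TN (median 11.22) and from 10.30 to 10.74 in HS (median 10.51). Every F1 pig in HS was below every F1 pig in TN, a separation that 11.7 percent of all probes had in F1 pigs. Such a separation was rarer in CR pigs (0.461 percent of all probes) and LW pigs (0.781 percent), and none of the 19 probes showed it there. Over all breeds O6318 fell by 0.81 on the log2 scale (SE 0.18, 1.76-fold lower, adjusted p = 0.0022), with 15 of 18 HS pigs below the TN mean of their breed. Within F1 pigs it fell by 1.43 (SE 0.30, 2.69-fold lower, adjusted p = 0.000671).

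The difference of O6318 was -0.47 ± 0.31 (SE, adjusted p = 0.631) in CR pigs and -0.52 ± 0.30 (SE, adjusted p = 0.598) in LW pigs. The CR pigs in HS fell into 3 with 9.33 to 9.61 and 3 with 10.80 to 11.21. The heat difference of F1 minus that of CR pigs was -0.96 ± 0.43 (SE, adjusted p = 0.399), and of F1 minus LW pigs -0.90 ± 0.42 (SE, adjusted p = 0.198). Without F1 pigs, O6318 differed by -0.49 ± 0.23 (SE, adjusted p = 0.274). The interaction of breed and climate had an adjusted p of 0.34.

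The other SELPLG probe, A_72_P303064, did not show this pattern. Its 5 CR pigs in TN had 5.66, 5.88, 5.99, 6.04 and 6.47, and the CR pigs in HS ranged from 5.95 to 6.41. F1 pigs ranged from 5.59 to 6.37 in TN and from 6.02 to 6.59 in HS, and LW pigs from 5.71 to 6.38 in TN and from 5.69 to 6.29 in HS. HS minus TN was 0.16 ± 0.09 (SE, adjusted p = 0.147), opposite in sign to O6318, with 15 of 18 HS pigs above the TN mean of their breed. This probe was dim and was well above background on 4 of the 6 F1 TN arrays. Over the 35 arrays the 2 probes had r = -0.43, and r = -0.30 after the group means were taken out. The sign of the SELPLG difference therefore depended on the probe.

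**Figure D3:**
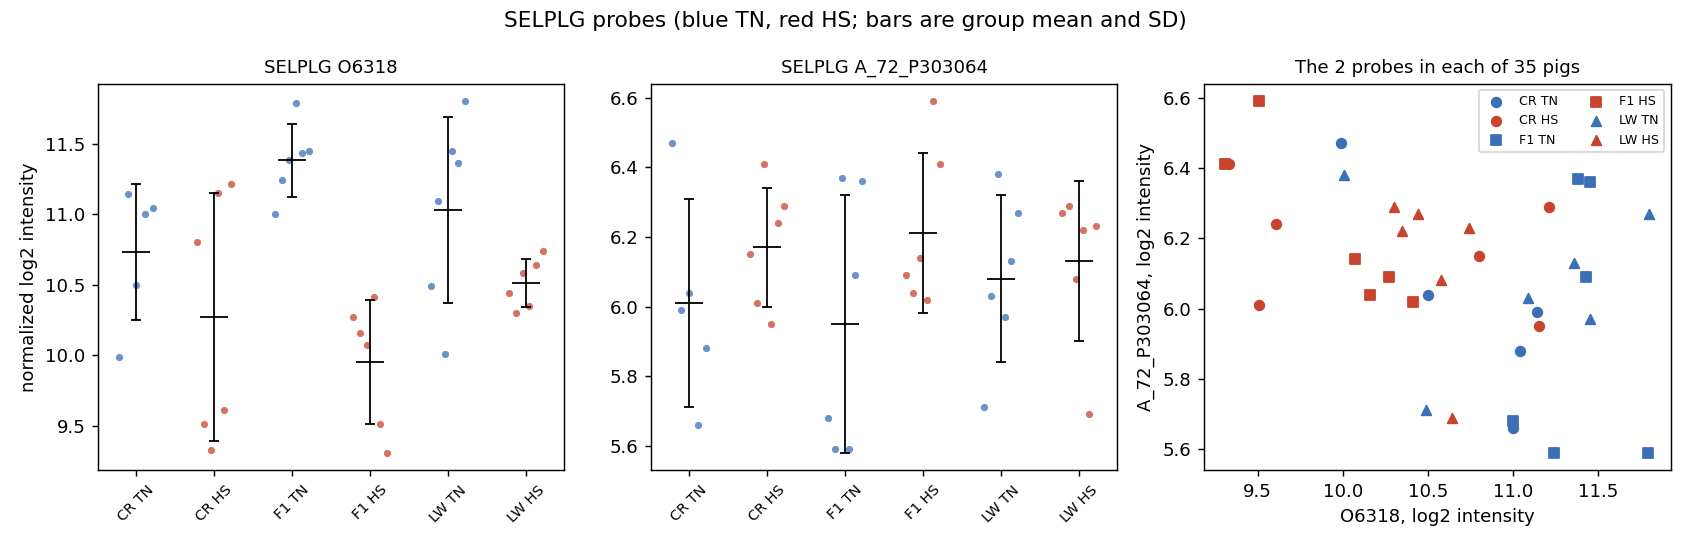
The 2 left panels plot normalized log2 intensity (y axis) of SELPLG probes O6318 and A_72_P303064 in the 6 groups (x axis), with points for pigs and bars for group mean and SD. In the right panel, which sets both probes against each other in each of the 35 pigs, the F1 TN pigs lie at 11 or above on O6318 and the F1 HS pigs at 10.41 or below, while their A_72_P303064 ranges, 5.59 to 6.37 in TN and 6.02 to 6.59 in HS, overlap.

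The sources of the SELPLG probes differ. The accession behind A_72_P303064 is among the pig RefSeq transcripts of SELPLG, and that behind O6318 is not. The same lack holds for ITGAL O11850, ITGB1 O5530, ITGB7 O241 and PECAM1 A_72_P650260. Since O11850 carries the same bases as A_72_P537242, whose accession is among those of ITGAL, the accession alone does not tell what a probe reads. O6318 has 60 percent G and C, A_72_P303064 45 percent. Among the 667 probes with over 55 to 60 percent G and C, the class of O6318, 40.5 percent were lower and 13.9 percent higher in HS. In the class of A_72_P303064, the 16183 probes with over 40 to 45 percent, 15.3 percent were lower and 23.9 percent higher. Among the 8660 probes with 35 percent or less, 7.32 percent were lower and 14.7 percent higher. The part of base composition in the fall of O6318 was not tested. After the group means were taken out, the 3 genes whose probes were most like O6318 were DENND4B, PRTG and AQP2 (r = 0.96 each over 35 arrays), and these probes differed by -0.93, -0.99 and -0.80 in HS. Their G and C content was 45, 41.7 and 60 percent. AQP2 is the vasopressin-regulated water channel of the kidney collecting duct.

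The erythroid mean was lower in HS, as O6318 was, and the T cell mean was higher. The mean of 13 of 18 listed erythroid genes was 9.72 to 11.55 in F1 TN pigs and 8.64 to 10.07 in F1 HS pigs. Over all breeds 11 of its 25 probes were lower and 1 higher in HS, against 14.7 and 20.1 percent of all probes. The lower ones included every CA1 probe (-1.35 to -1.45), while AHSP (-0.05 and -0.08) and HBB (-0.13) stayed short of the threshold. HS minus TN of the erythroid mean was -0.40 in CR, -0.99 in F1 and -0.28 in LW pigs. After the group means were taken out, O6318 correlated at 0.35 with the erythroid mean and at -0.62 with the mean of 9 of 13 T cell genes over 35 arrays. With the erythroid mean in the model, the difference of O6318 was -0.54 ± 0.20 over all breeds (SE, adjusted p = 0.147) and -1.05 ± 0.34 in F1 pigs (SE, adjusted p = 0.0553). In that model 0 of the 19 adhesion probes and 3 of all 39072 probes passed over all breeds with limma, and 3 of the 19 had an unadjusted p below 0.05 against 19.6 percent of all.

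ITGAL, the α chain of LFA-1, was read by 3 probes. For the brightest, A_72_P077381, the 5 CR pigs in TN had 8.12, 8.36, 8.70, 8.74 and 8.79, and the CR pigs in HS ranged from 8.65 to 9.11. The F1 ranges were 8.03 to 9.29 in TN and 8.19 to 8.85 in HS, and the LW ranges were 8.42 to 8.78 and 8.13 to 8.91. All ranges overlapped, and HS minus TN was 0.08 ± 0.09 (SE, adjusted p = 0.509). O11850 was higher in HS by 0.32 ± 0.11 (SE, 1.25-fold, adjusted p = 0.0196), with 17 of 18 HS pigs above the TN mean of their breed. A_72_P537242, which carries the identical 60 bases, differed by 0.22 ± 0.12 (SE, adjusted p = 0.14). The ITGAL call therefore rested on 1 of 2 spots of the same sequence.

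The array holds 1286 sequences that appear under 2 probe names in the deposited table. The median absolute gap in HS minus TN between the members of such a pair was 0.0261, a gap over 0.1 occurred in 6.53 percent of pairs, and in 8.01 percent only 1 of the pair passed the threshold. In CR pigs the differences of O11850 and A_72_P537242 were 0.53 ± 0.19 (SE, adjusted p = 0.557) and 0.41 ± 0.21 (SE, adjusted p = 0.557), the largest of the 3 breeds for both. Without CR pigs O11850 differed by 0.23 ± 0.13 (SE, adjusted p = 0.185), and without F1 pigs by 0.32 ± 0.13 (SE, adjusted p = 0.24). With the erythroid mean in the model it differed by 0.18 ± 0.12 (SE, adjusted p = 0.394), and with the neutrophil mean by 0.26 ± 0.11 (SE, adjusted p = 0.0648). Its residuals correlated at -0.43 with the erythroid mean, -0.37 with the neutrophil mean and 0.44 with the T cell mean.

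ITGB2, the β chain that LFA-1 shares with the αM and αX integrins, had overlapping groups in every breed. On its probe A_72_P146616 the 5 CR pigs in TN had 12.30, 12.33, 12.41, 12.58 and 12.91, and the CR pigs in HS ranged from 12.48 to 13.05. The F1 ranges were 12.03 to 12.77 in TN and 12.38 to 12.77 in HS. LW pigs ranged from 12.53 to 13.05 in TN and from 12.41 to 12.67 in HS, and their groups overlapped although all 6 LW HS pigs were below the LW TN mean. HS minus TN was 0.04 (95% interval -0.11 to 0.19, adjusted p = 0.698). It was 0.17 in CR, 0.16 in F1 and -0.20 in LW pigs, and the interaction had an adjusted p of 0.359. The genes most like ITGB2 once group means were removed were ESYT2, MINK1 and SEPHS2 (r = 0.79, 0.78 and 0.77 over 35 arrays). The mean of 10 of 14 neutrophil genes differed by -0.38 in CR, -0.62 in F1 and -0.31 in LW pigs, with group SDs of 0.56 to 1.05. Of its 19 probes, 6 were lower and none higher in HS, against 14.7 percent lower among all probes. The lower ones were all of ARG1 (-1.40 to -1.53) or MMP9 (O11977, -0.19), while CXCR1 and CXCR2 had 0.00 and -0.07. The residuals of ITGB2 correlated at -0.47 with the neutrophil mean, -0.57 with the erythroid mean and 0.45 with the T cell mean. In the model, HS minus TN over all breeds was -0.01 with the neutrophil mean and -0.10 with the erythroid mean.

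ITGA4, the α4 chain, was lower in HS in each breed without passing the threshold. The 5 CR pigs in TN had 8.77, 9.22, 9.37, 9.45 and 9.55 on A_72_P100526, and the CR pigs in HS ranged from 8.75 to 9.35. F1 pigs ranged from 8.50 to 10.13 in TN and from 8.57 to 9.58 in HS, and LW pigs from 8.48 to 9.67 and from 8.13 to 9.52. The overlap was wide in all breeds. HS minus TN was -0.31 ± 0.15 (SE, adjusted p = 0.101), with 14 of 18 HS pigs below the TN mean of their breed, and -0.37 ± 0.14 (SE, adjusted p = 0.0287) with array weights. DAPL1 and JMJD1C were among the genes most like it (r = 0.90 and 0.88 over 35 arrays). The residuals of ITGA4 correlated at -0.65 with the mean of the platelet genes.

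ITGB7, a β chain that pairs with α4 in lymphocytes that home to the gut, had 1 probe, O241. Values of the 5 CR pigs in TN were 11.52, 11.94, 12.08, 12.29 and 12.32, and the CR pigs in HS ranged from 11.59 to 12.64. F1 pigs ranged from 11 to 12.33 in TN and from 11.97 to 12.33 in HS, and LW pigs from 11.80 to 12.32 and from 11.85 to 12.75. The 6 F1 HS pigs were above the F1 TN mean and inside the upper part of the F1 TN range. HS minus TN was 0.20 ± 0.11 (SE, adjusted p = 0.161) over all breeds and 0.42 ± 0.19 (SE, adjusted p = 0.0825) in F1 pigs. The F1 value had an adjusted p of 0.0411 without F1 TN replicate 3 and 0.0275 without F1 TN replicate 6. Over all breeds the difference was -0.07 (adjusted p = 0.758) with the erythroid mean in the model and 0.11 (adjusted p = 0.458) with the neutrophil mean. The residuals of O241 correlated at -0.68 with the erythroid mean, 0.56 with the B cell mean, 0.52 with the T cell mean and -0.51 with the neutrophil mean, and the part of the B and T cell genes was not tested.

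ITGB1, the β chain of VLA-4 and of many matrix-binding integrins, was read at several places along the transcript. On its brightest probe, A_72_P195557, the 5 CR pigs in TN had 11.99, 12.07, 12.12, 12.17 and 12.72, and the CR pigs in HS ranged from 12.12 to 13.35. F1 pigs ranged from 11.69 to 12.58 in TN and from 11.95 to 13.35 in HS, and LW pigs from 11.92 to 12.57 and from 12.12 to 12.94. Every breed overlapped, and HS minus TN was 0.26 ± 0.12 (SE, adjusted p = 0.095). With array weights the adjusted p was 0.044. The other 6 probes differed by -0.33 to 0.12 over all breeds, and their adjusted p-values were between 0.258 and 0.574.

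The ITGB1 probes differed most from each other in LW pigs. By the first base of the probe in the transcript, HS minus TN in LW pigs was 0.08 ± 0.21 (SE) at 2459, -0.24 ± 0.17 at 3001, -0.32 ± 0.17 at 3017, -0.60 ± 0.23 at 3454, -0.97 ± 0.36 at 3651 and -1.05 ± 0.37 at 3659. The later a probe lay, the lower its difference in LW pigs was. The probes at 3001 and 3017 share 44 bases and those at 3651 and 3659 share 47, so not all of these starts are separate readings. O5530, for which the files give no start, shares 53 bases with the probe at 3651 and differed by -0.92 ± 0.37 (SE). Of the 7 differences, none passed the threshold, since the smallest adjusted p was 0.563, and 4 had an unadjusted p below 0.05 in the limma fit, from 0.00791 to 0.017. With array weights these 4 had adjusted p-values from 0.0321 to 0.0379, and 1111 of all 39072 probes passed in LW pigs where 0 had passed without weights.

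For the probe at 3659, A_72_P682292, the LW pigs in TN ranged from 9.01 to 11.40 (median 10.41) and the LW pigs in HS from 8.28 to 10.31 (median 8.99). The groups overlapped, and 5 of 6 HS pigs were below the TN mean. In CR and F1 pigs the differences of the 7 probes were all positive, between 0.02 and 0.42. The interaction had its smallest adjusted p among the adhesion probes for A_72_P639944, at 3017, with 0.278 (unadjusted p = 0.00894 in the limma F test). The smallest adjusted p of the array was also 0.278. The adjustment gives this value to probes of different unadjusted p, so it does not rank A_72_P639944 first on the array. For this probe the heat difference of LW minus that of CR pigs was -0.74 ± 0.24 (SE, adjusted p = 1).

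**Figure D4:**
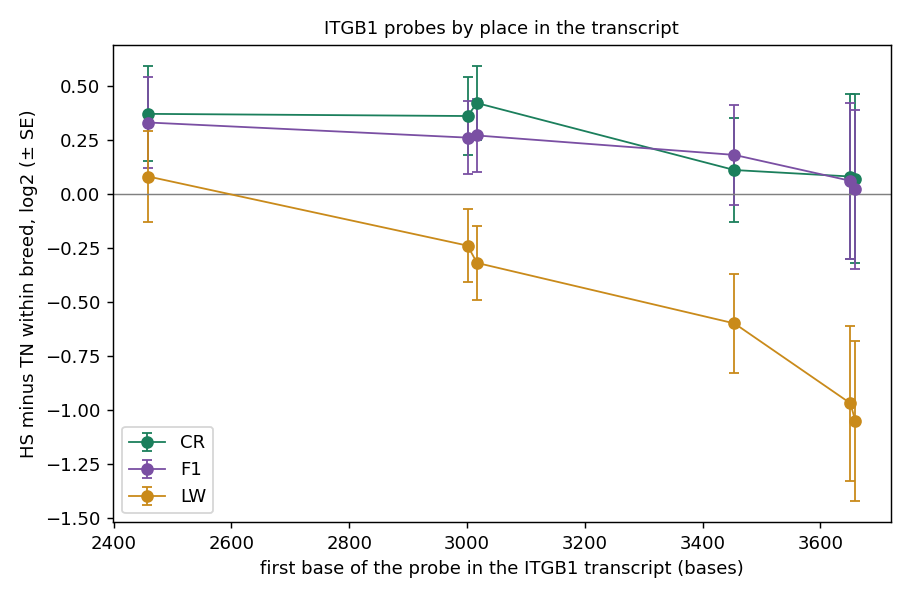
HS minus TN within each breed (y axis, log2, points with SE bars) of the 6 ITGB1 probes with a start in the files, set against the first base of the probe in the transcript (x axis). The LW line falls from 0.08 at base 2459 to -1.05 at base 3659, and the CR and F1 lines stay above 0.

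The late probes did not follow the early probe from pig to pig. After the group means were taken out, A_72_P195557 correlated at -0.03, -0.04, -0.03 and -0.08 with A_72_P682292, A_72_P223772, O5530 and A_72_P652927, and at 0.61 and 0.51 with the probes at 3001 and 3017. The 3 last probes share 47 to 53 bases and correlated at 0.99 with each other. A_72_P652927, at 3454, shares at most 7 bases with them and correlated at 0.91. The residuals of A_72_P223772 were most like those of VPS54, SNAP23 and CD164 (r = 0.92, 0.92 and 0.90), a comparison chosen after the values were seen, and those 3 genes differed by -0.29, -0.21 and -0.63 in LW pigs. Late and early probes also had different partners among the marker lists: A_72_P223772 correlated at -0.59 with the mean of 5 of 9 B cell genes, and A_72_P195557 at 0.06.

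**Figure D5:**
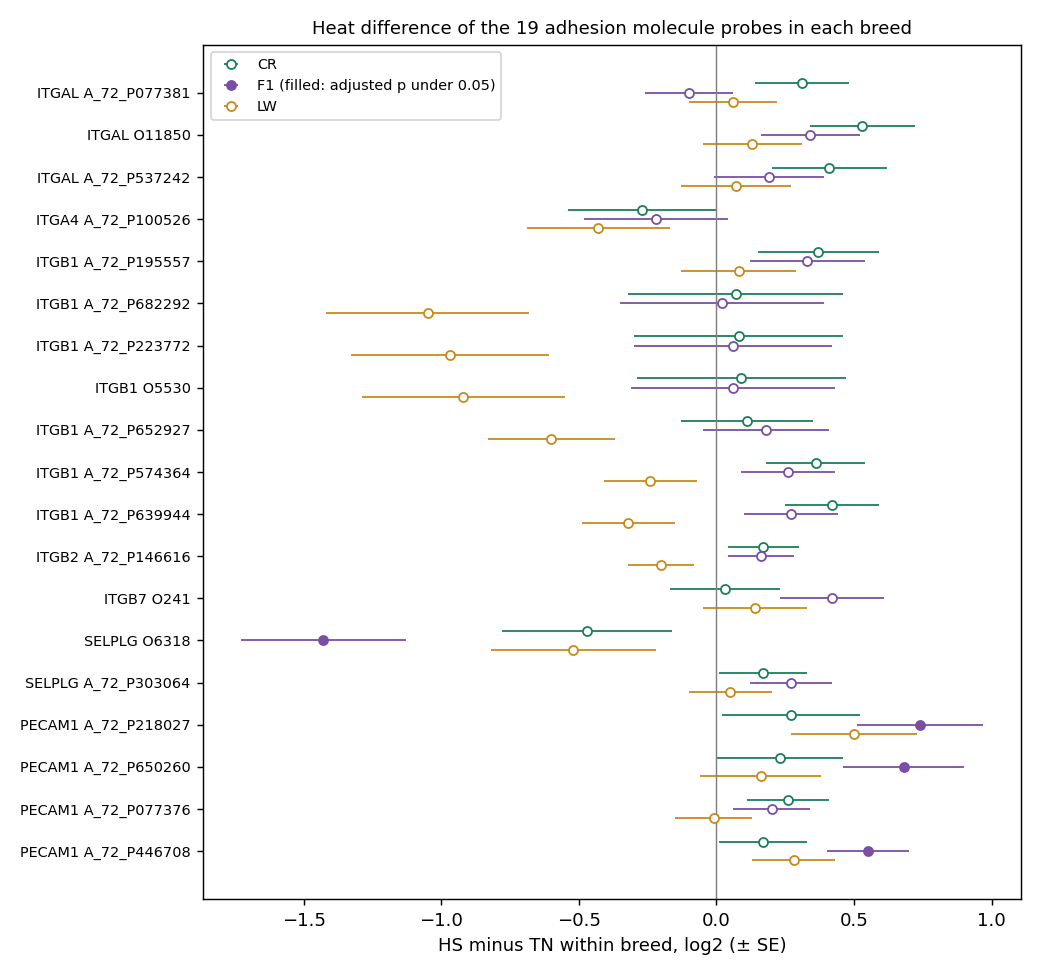
HS minus TN within CR, F1 and LW pigs (x axis, log2, points with SE bars) of the 19 adhesion molecule probes (y axis), with filled points where the adjusted p was under 0.05. The filled points are 4 F1 values, SELPLG O6318 at -1.43 and 3 PECAM1 probes between 0.55 and 0.74. The LW values of the late ITGB1 probes lie below the CR and F1 values. No difference between breeds in their heat effect passed the threshold (F1 minus LW of A_72_P682292 was 1.08 ± 0.53, SE, adjusted p = 0.219).

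In the interaction of breed and climate, 0 of the 19 probes and 0 of all 39072 probes passed with limma, and 3 of the 19 had an unadjusted p below 0.05 against 14.9 percent of all. Between breeds, 0 of the 19 passed in CR minus LW, where 1.08 percent of all probes did, 0 in F1 minus CR (0.184 percent) and 0 in F1 minus LW (0.0256 percent). Unadjusted, 3 of the 19 had p below 0.05 in CR minus LW, all of PECAM1, against 10.1 percent of all probes. In F1 minus CR and F1 minus LW 0 did, against 4.95 and 4.48 percent of all. For none of the 19 probes did neighbouring group means in the order of the 6 groups differ by more than the pooled SD.

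The differences that passed had the same sign on each slide that gave a value. Every slide held several groups, and on the 4 slides where climate could be separated from breed, HS minus TN ranged from -1.14 to -0.21 for SELPLG O6318, from 0.20 to 1.16 for PECAM1 A_72_P218027, from 0.16 to 0.71 for A_72_P446708, from 0.02 to 0.69 for A_72_P650260 and from 0.26 to 0.44 for ITGAL O11850. The fifth slide, with 4 arrays, could not give a value. With slide as a block, 5 of the 19 probes passed over all breeds.

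Genes that act together with the adhesion molecules were counted by list. The list of integrin activation holds proteins that promote the switch of integrins to the binding state and proteins that restrain it. Of its 28 probes (12 of 18 genes measured), 13 were higher and 2 lower in HS, with a median difference of 0.16. The higher probes were of both kinds, with FLNA, DOK1 and SHARPIN among those that restrain the switch. TLN1, talin, which binds the β chain tails, was higher on all 3 probes, by 0.17 to 0.40. FLNA, the actin cross-linker filamin that competes for these tails, was higher on 4 of 5 probes, by 0.44 to 0.62. RASGRP2, which activates RAP1 in platelets and leukocytes, was higher by 0.35 ± 0.10 (SE, adjusted p = 0.00702), and RASSF5, the RAP1 effector RAPL, was lower, with -0.47 ± 0.12 (SE, adjusted p = 0.00417).

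In the list of integrin signalling and cytoskeleton, 21 of 48 probes (22 of 26 genes measured) were higher and 2 lower, with a median of 0.24. ACTN1, an α-actinin that links integrins to actin, was higher on its 3 probes by 0.33 to 0.51. VCL, vinculin, was higher on 2 dimmer probes by 0.28 and 0.31, while its brighter probes differed by 0.11 to 0.19, short of the threshold. PTK2B, a focal adhesion kinase family member, had 1 probe higher by 0.29 and 1 with a difference of -0.81. Its other probes had -0.12 and -0.20, short of the threshold. These shares of 53.6 and 47.9 percent stand beside 34.8 percent of all probes, and no test of the lists was made. In F1 pigs 35.7 and 43.8 percent of the probes of these lists passed, against 38.7 percent of all.

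The ligands and the enzymes of selectin ligand synthesis were mixed. Among 20 probes of 10 endothelial and plasma ligands, 5 were higher and 2 lower, with a median of 0.01. FN1, fibronectin, a ligand of VLA-4, was higher on 3 of 4 probes by 0.64 to 0.77. ICAM3, a ligand of LFA-1 on leukocytes, had 1 of 3 probes lower, with a difference of -0.86 ± 0.20 (SE), and the others at 0.00 and -0.02. MADCAM1, the ligand of α4β7, had 1 of 2 probes lower with -0.84 ± 0.19 (SE), and the other at -0.05. In F1 pigs these 2 lower probes had -1.43 and -1.53, beside -1.43 for SELPLG O6318, and their residuals correlated at 0.48 and 0.44 with O6318.

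Of 22 probes of 11 genes for the synthesis of selectin ligands, 3 were higher and 2 lower over all breeds (22.7 percent, against 34.8 percent of all probes), and 9 were higher and 4 lower in F1 pigs (59.1 percent, against 38.7 percent of all). TPST2, which sulfates tyrosines of SELPLG, was higher in F1 pigs on 5 probes by 0.41 to 0.53, while TPST1, which has the same activity, had -0.82 there. GCNT1, which builds the core 2 O-glycans that carry the selectin-binding sugars, was higher by 0.24 ± 0.07 (SE, adjusted p = 0.00845) over all breeds. Among 34 probes of 13 other adhesion receptors of leukocytes and platelets, 8 were higher and 1 lower. The higher ones were 3 probes of ITGB5 by 0.28 to 0.34, 3 of ITGA5 by 0.19 to 0.30, 1 of ITGA6 by 0.25 and 1 of CD2 by 0.33. The lower one was 1 SIRPA probe at -0.40. The brightest ITGA5 probe went the other way, with -0.19 (adjusted p = 0.0709). The other CD2 probe had 0.09 and the other SIRPA probes -0.17 to 0.04, also short of the threshold.

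The remaining blood cell lists were counted in the same way. Over all breeds 9 of 23 T cell probes, 4 of 20 monocyte probes and 2 of 6 B cell probes were higher and none lower, while 2 of 11 cytotoxic and NK cell probes and the single eosinophil probe, of CCR3, were lower and none higher. Of all probes, 20.1 percent were higher and 14.7 percent lower, so the monocyte share of 20 percent was that of the array. The T cell mean differed by 0.09 in CR, 0.37 in F1 and 0.03 in LW pigs. The part of these cells in the values of the adhesion molecules was not tested.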

How the data were processed

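RNA of PAXgene blood was labelled with Cy3 and hybridized to 1-colour Agilent arrays. Per the file headers, Feature Extraction 10.10.1.1 gave the intensity of each spot and its flags, here the well-above-background and outlier flags. The log2 values deposited by the authors came from quantile normalization of the median intensity and a filter on expressed probes. Column medians were 7.127 to 7.135. Values recomputed from the intensities, with 217 outlier spots left out, correlated with the deposited log2 values at r = 0.999971, with a largest difference of 0.322. All comparisons used the deposited table in R 4.3.3 with limma 3.58.1 (lmFit, eBayes, two-sided). HS minus TN and breed contrasts were fitted with breed and climate as additive terms, and effects within breeds and the interaction from 6 group means. The random terms for pen, day of slaughter, sire and dam that the study used were not fitted, as the labels hold none of them. P-values measure the spread between pigs, some of them littermates. Pigs of a climate also shared pens and days of slaughter, which the fit does not allow for, so the p-values can be too small. The fit was tested on simulated data. Groups come from the labels, and replicate numbers only follow the order of the records. The brightest probe of each gene over the 35 arrays is given in full, together with every probe past the threshold. Members, gene lists and marker lists were chosen with earlier results of these data known. Alternatives were the recomputed values, other scalings, filters on dim probes, array weights, slide as a block, marker means as covariates, leaving out a breed and leaving out each array. No genome was used here, and no coordinates are given. The number of arrays limits the precision.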

Additional observations from a re-analysis of the deposited data

Results flagged for a closer look

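Of 114 sets of values (19 probes in 6 groups), 9 held a pig whose value stood far from the rest of its group by Dixon's criterion, which chance alone meets in about 5 percent of sets. For ITGB1 A_72_P195557, CR TN replicate 2 had 12.72 against 12.17 for the next pig, and LW HS replicate 4 had 12.94 against 12.40. For ITGB1 O5530, CR HS replicate 1 had 11.26 against 9.92. On ITGB1 A_72_P652927, LW HS replicate 5 had 9.62 against 8.92. On ITGB1 A_72_P574364, CR TN replicate 4 had 8.31 against 8.70, F1 TN replicate 2 had 9.17 against 8.61 and LW TN replicate 3 had 9.45 against 8.87. LW HS replicate 5 was the lowest of its group on ITGAL A_72_P077381, with 8.13 against 8.70, and on SELPLG A_72_P303064, with 5.69 against 6.08.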

How the results depend on the processing

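Over all breeds, 5 of the 19 probes passed the threshold, and 4 to 7 did with recomputed values, both other scalings, no filter, the stricter filter, array weights, slide as a block, the average of the within-breed effects, and without CR or without LW pigs. The count was 0 with the erythroid mean as a covariate, 3 with the neutrophil mean and 0 without F1 pigs, which leaves fewer pigs. In F1 pigs 4 passed, 2 did with array weights and 0 with the erythroid mean (2 at an unadjusted p below 0.05 in limma). In LW pigs 0 passed and 4 did with array weights. In CR minus LW 0 passed and 1 did with array weights and with the neutrophil mean. Without each array in turn, the counts were 4 to 5 over all breeds, 3 to 6 in F1 pigs, 0 to 1 in CR minus LW, and 0 throughout in the other comparisons; the ITGB1 A_72_P195557 value in LW pigs ranged from -0.03 to 0.14.

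Values short of the threshold that changed sign over all breeds were ITGAL A_72_P077381 (-0.03 with the erythroid mean, -0.02 without CR pigs), ITGB2 A_72_P146616 (-0.10 with the erythroid mean, -0.01 with the neutrophil mean, -0.02 without F1 pigs and -0.02 without CR pigs) and ITGB7 O241 (-0.07 with the erythroid mean). The cause was not tested. No paired analysis was possible because the labels give no replicate numbers. Dim probes such as SELPLG A_72_P303064 are limited by signal over background.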
